A study of Mus musculus with 9 samples.

Results

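Sprouty, Spred and dual-specificity phosphatase genes, which encode brakes on the ERK kinase pathway, were examined together with the target gene Etv5 in hearts of immunodeficient nude mice with chronic heart failure. The set held 10 genes out of 30142 measured genes and was chosen by name: Spry1, Spry2, Spry4, Spred1, Spred2, Dusp1, Dusp4, Dusp5, Dusp6 and Etv5. Where a gene has several probe sets, the one with the highest mean over the 9 arrays is used, but each of these genes had only 1, so no measured value entered the choice of probe set. The gene set itself was proposed with results of these arrays already known.

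Infarcts had been made by permanently ligating the left anterior descending artery, and mice with an ejection fraction under 50% entered the study 3 weeks later. Hearts were taken whole 6 weeks after treatment. The control group (2 arrays) received the culture medium alpha-MEM. The vesicle group (3 arrays) received the extracellular vesicles that cardiovascular progenitor cells had shed over 48 hours, and the cell group (3 arrays) received 500000 of these progenitor cells. The vesicle dose was what that same number of cells had secreted. The sham heart (1 array) was infarcted too and received needle punctures at 3 sites with nothing injected. By the sample titles, experiment 9 comprised the sham heart and array 1 of every other group, and experiment 1 the other 5 arrays. The titles also carry a VTS number: 3 for experiment 9, 1 for array 2 of the control, vesicle and cell groups, and 2 for vesicle and cell array 3. What these numbers stand for is not stated. The labels do not say that each array is a separate animal, so p-values measure only the spread between these arrays.

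ERK lies at the end of a relay in which growth factor receptors switch on RAS, RAS switches on RAF, and RAF acts through MEK. Sprouty and Spred proteins act near the top of the relay, between receptor, RAS and RAF, and dual-specificity phosphatases (the Dusp genes) remove the activating phosphates from ERK or its sister kinases. Many of these genes are themselves switched on by ERK activity, so their messages are widely read as a record of recent signalling. In the heart the pathway acts in muscle cells, fibroblasts and vessel walls alike, and whole-heart RNA pools them all. In such RNA, fewer cells of a type and less message per cell cannot be told apart.

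Values are log2 expression summaries, on which a difference of 1 is a doubling. The level was judged against negative control probe sets, whose 95th percentile lay between 7.18 and 7.29 on the arrays. Spry1, Spred1, Spred2 and Dusp1 exceeded that level on all 9 arrays, Spry4 on 8, Dusp6 on 7, Spry2 on 6 and Etv5 on 5, whereas Dusp4 and Dusp5 did so on none. Values of Spry2, Dusp6 and Etv5 therefore straddled the background, Spry4 was under it on control array 1 alone, and the values of Dusp4 and Dusp5 lay below it. For 6 of the 10 genes, 3 or more arrays carried an identical value, in each case the gene's own median. Over all genes 61.1% had 3 or more arrays tied, so this is a feature of the deposited table and not of these members. Such ties narrow the spread of the genes that hold them. All 11 cardiomyocyte markers measured, Myh6 and Tnnt2 among them, exceeded the negative controls on every array. Vesicle array 3 stood apart through lung transcripts, with a surfactant protein message, Sftpc, at 9.75 against a median of 4.49 over the arrays. Cell array 3 stood apart through early response transcription factors, described below.

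**Figure D1:**
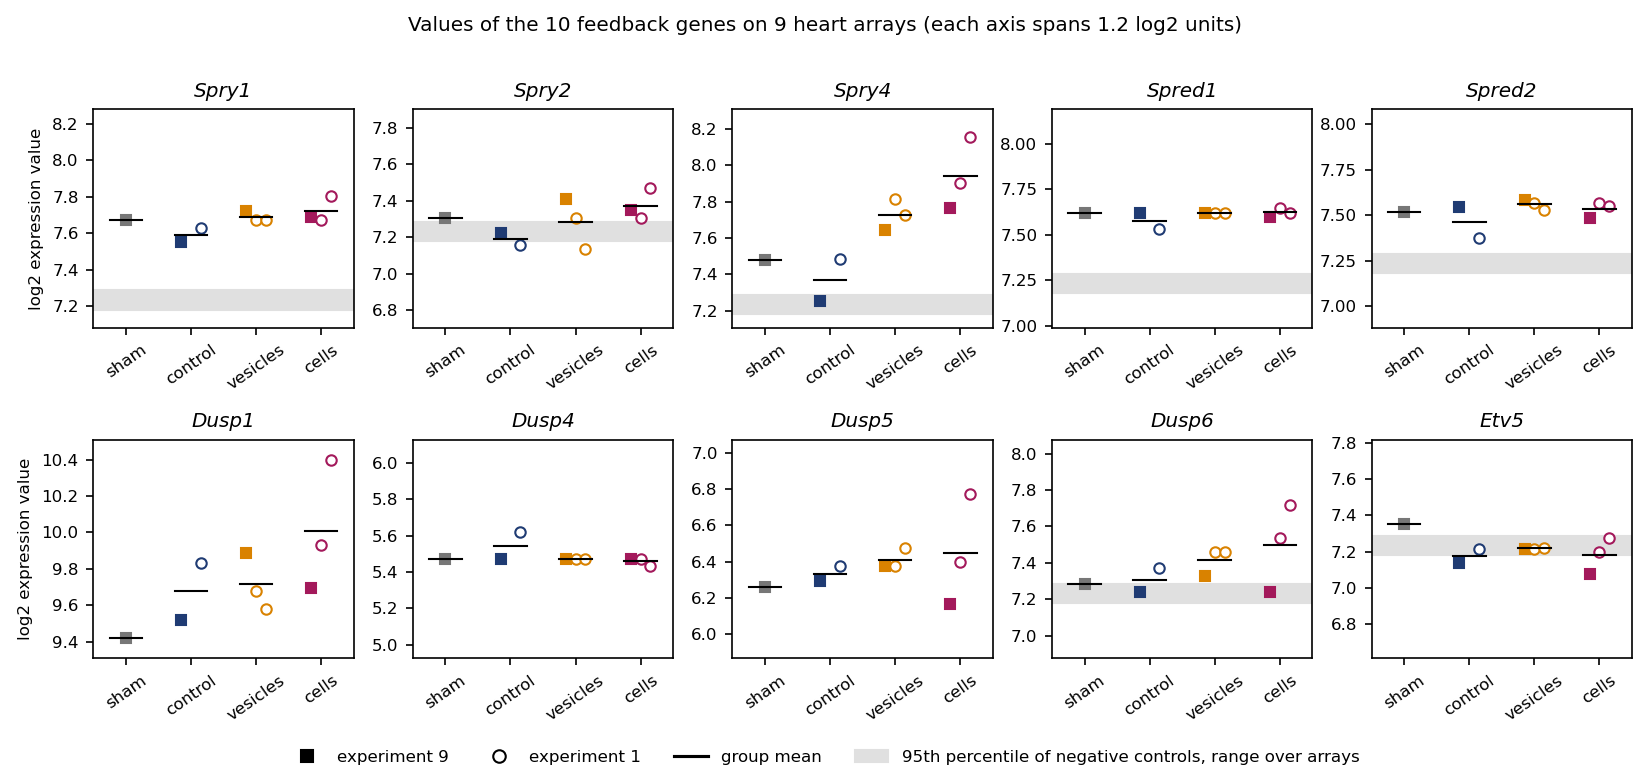
Log2 expression value of each of the 10 genes (vertical axis, 1.2 log2 units in every panel) on the sham, control, vesicle and cell arrays, with filled squares for experiment 9, open circles for experiment 1, bars for group means and a grey band for the 95th percentile of negative controls over the arrays. Spry4 is the gene whose 6 treated arrays, 7.64 to 8.16, all lie above the controls and the sham array. Spry1, Spry2, Spry4, Dusp1, Dusp5 and Dusp6 have their highest value on cell array 3, with Dusp5 below the negative controls there.

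Among the 10 members, Spry4 had the clearest order of treated against untreated arrays. Spry4 encodes a Sprouty protein that blocks activation of the RAS and RAF steps after growth factor stimulation. Its log2 value was 7.26 on control array 1 and 7.48 on control array 2, 7.64, 7.81 and 7.73 on vesicle arrays 1 to 3, and 7.76, 7.90 and 8.16 on cell arrays 1 to 3, with 7.48 on the sham array. All 6 treated arrays thus lay above both controls and the sham array, a pattern that 1 of the 10 members had, against 0.292% of all genes and 0.498% of the 6827 brighter genes, those above the negative controls on at least 3 arrays. After cells Spry4 was higher by a fitted log2 difference of 0.54 ± 0.085 (SE), or 1.45-fold, and after vesicles by 0.32 ± 0.085, or 1.25-fold, with 3 cell, 3 vesicle and 2 control arrays in the fit.

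Neither Spry4 difference passed limma's test over all genes, at adjusted p = 0.682 after cells and 0.675 after vesicles. The unadjusted p were 0.00129 and 0.0118, and 0.136% and 1.32% of all genes had a lower one. The gap was above 0 in both experiments: within experiment 9 it was 0.51 after cells and 0.39 after vesicles, and within experiment 1 it was 0.55 and 0.29. The value of control array 1, from which the differences in experiment 9 are taken, was not above the negative controls. Both comparisons share the same 2 control arrays, so a low control value raises both. Spry4 also stood lower after vesicles than after cells, by −0.21 ± 0.075 (unadjusted p = 0.0351, adjusted p = 0.92), but the groups overlapped, since vesicle array 2 exceeded cell array 1. Between arrays of the same VTS number Spry4 was lower after vesicles in 3 of 3 pairs, by −0.09, −0.43 and −0.12 for numbers 1, 2 and 3. The VTS number was taken up as a block after the results were seen. No share of all genes with this pattern is given, so the pairs are a description. Without vesicle array 3 the difference between vesicles and control was 0.36. Without cell array 3 the difference between vesicles and cells was −0.13 and the difference between cells and control was 0.46.

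Spry1 encodes the family member known for restraining fibroblast growth factor and GDNF signalling. Its values were 7.55 and 7.63 on the control arrays, 7.72, 7.67 and 7.67 on the vesicle arrays, 7.69, 7.67 and 7.81 on the cell arrays, and 7.67 on the sham array. Every treated array lay above both controls. This held in 2 of 10 members, Spry1 and Spry4, against 1.08% of all genes and 1.79% of the brighter genes. The spread was narrow, and the sham value equalled that of 3 treated arrays, vesicle arrays 2 and 3 and cell array 2. This shared value is the gene's own median, one of the ties described above. On these 3 treated arrays it lay 0.043 above the control of experiment 1. The fitted log2 difference was 0.093 ± 0.050 after vesicles and 0.13 ± 0.050 after cells (adjusted p = 0.675 and 0.682). Spry2, a Sprouty protein that also shields the EGF receptor from degradation, read 7.22 and 7.16 on the controls, 7.41, 7.30 and 7.14 after vesicles, 7.35, 7.30 and 7.47 after cells, and 7.30 on the sham array. The cell arrays lay above the controls, while vesicle array 3 lay below both of them and under the negative control level. Differences were 0.20 ± 0.087 after cells (adjusted p = 0.682) and 0.11 ± 0.087 after vesicles (adjusted p = 0.75). Without vesicle array 3 the difference after vesicles was 0.17, and without cell array 3 that after cells was 0.14.

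Counted over the whole set, every vesicle array exceeded every control array in 2 of the 10 members, Spry1 and Spry4, against 3.72% of all genes, and 7.25% of the brighter ones. For cells this held in 3 members, all of them Sprouty genes, against 3.2% of all genes and 4.91% of the brighter ones. Set against the control of the same experiment only, all vesicle arrays were higher in 4 members (Spry1, Spry4, Spred2 and Dusp6), against 10.6% of all and 23.7% of brighter genes. All cell arrays were higher in 5 (Spry1, Spry2, Spry4, Dusp1 and Dusp6), against 8.86% and 15.7%. Dusp6 counts here although cell array 1 exceeded its control by only 0.004, with both values under the negative controls. No member lay wholly below the controls, a pattern found in 7.17% of all genes after vesicles and 5.57% after cells. Limma called 0 of 10 members at an adjusted p under 0.05 in either comparison, and 0.0% of all genes. Leaving out control array 1 leaves 1 control array, whose spread is taken from the other groups. Calls under that setting are not read as a result about the members. With both control arrays, limma gave 1 of 10, Spry4, at an unadjusted p under 0.05 in each comparison. The shares of all genes were 6.44% after vesicles and 6.73% after cells. In the upward direction these shares were 1.91% and 1.68% of all genes. The fitted difference was above 0 in 9 of 10 members after vesicles and 8 of 10 after cells, against 39.6% and 44.2% of all genes. The share of brighter genes with a difference above 0 is not given. The members' median log2 difference was 0.061 after vesicles and 0.10 after cells, beside −0.012 and −0.0064 over all genes. Over the brighter genes, a closer match in level, the median was 0.0098 after vesicles and 0.019 after cells. Since the members were chosen with results known, these counts and medians are descriptions.

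**Figure D2:**
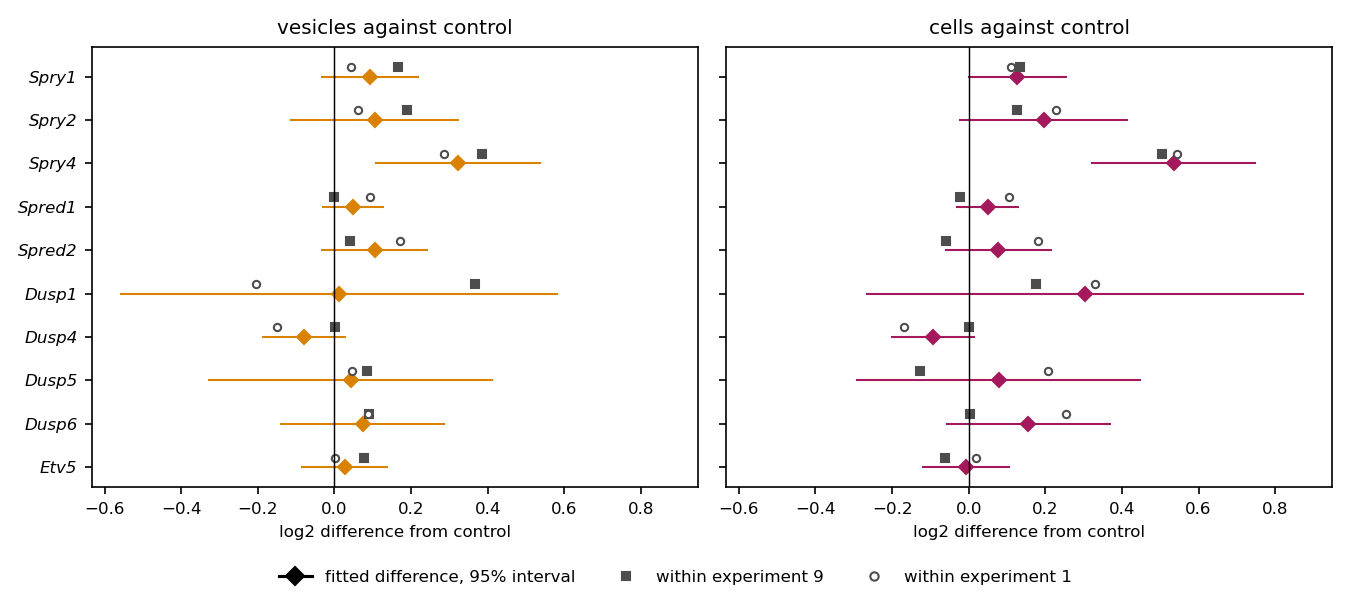
Fitted log2 difference from control (horizontal axis) of the 10 genes after vesicles (left) and after cells (right), as diamonds with 95% intervals, and the differences within experiment 9 (squares) and experiment 1 (open circles). The Spry4 interval lies above 0 in both panels, from 0.11 to 0.54 after vesicles and from 0.32 to 0.75 after cells, while the other intervals include 0. The intervals are not adjusted for the number of genes tested. By limma the adjusted p of Spry4 was 0.675 after vesicles and 0.682 after cells.

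The Spred proteins are relatives of the Sproutys that bring neurofibromin, an inactivator of RAS, to the membrane. Both Spred genes varied little. Spred1 had the same value, 7.62, on the sham array, control array 1, all 3 vesicle arrays and cell array 3, with 7.53 on control array 2 and 7.60 and 7.65 on cell arrays 1 and 2. Spred2 read 7.54 and 7.38 on the controls, 7.59, 7.57 and 7.53 after vesicles, 7.49, 7.57 and 7.55 after cells, and 7.51 on the sham array. For both genes control array 2 was the lowest of the 9 arrays, and the treated arrays overlapped control array 1. The Spred1 difference was 0.048 ± 0.032 after vesicles and 0.050 ± 0.032 after cells (adjusted p = 0.703 and 0.709). The Spred2 difference was 0.10 ± 0.055 and 0.078 ± 0.055 (adjusted p = 0.675 and 0.73). Without control array 2 the Spred1 differences were −0.012 and −0.010, and those of Spred2 were 0.004 and −0.023.

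Dusp1, Dusp5 and Dusp6 are shown with the bases before their start sites. The promoter windows were searched for motifs known from genes that respond to growth factors, serum or cAMP. These 3 genes are among the 6 members with their highest value on cell array 3, where Dusp5 was still below the negative control level. Spry1 and Spry2 also peaked there, and their windows held none of the motifs searched. The part of the motifs in the values was not tested. The 250 bases upstream of the start site come from RefSeq on GRCm38.p6, where promoters of 8 of the 10 members were matched; Spry4 and Dusp4 are named only. Capitals mark, for Dusp1, the bases TGACG of the cAMP response element on either strand; for Dusp5, the CArG boxes that bind serum response factor; and for Dusp6, the ETS core CGGAA on either strand, the kind of site that Etv5 and its relatives bind.
Dusp1, chr17:26508473-26508722, minus strand: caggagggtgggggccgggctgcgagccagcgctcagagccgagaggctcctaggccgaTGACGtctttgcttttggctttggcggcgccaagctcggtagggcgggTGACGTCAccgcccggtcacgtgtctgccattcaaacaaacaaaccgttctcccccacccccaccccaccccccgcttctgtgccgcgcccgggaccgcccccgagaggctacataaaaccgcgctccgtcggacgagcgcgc
Dusp5, chr19:53528895-53529144, plus strand: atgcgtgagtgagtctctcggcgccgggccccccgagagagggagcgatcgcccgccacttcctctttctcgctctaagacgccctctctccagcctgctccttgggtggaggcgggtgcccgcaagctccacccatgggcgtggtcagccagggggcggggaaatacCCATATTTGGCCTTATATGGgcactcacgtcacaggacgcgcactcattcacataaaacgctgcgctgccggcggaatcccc
Dusp6, chr10:99262981-99263230, plus strand: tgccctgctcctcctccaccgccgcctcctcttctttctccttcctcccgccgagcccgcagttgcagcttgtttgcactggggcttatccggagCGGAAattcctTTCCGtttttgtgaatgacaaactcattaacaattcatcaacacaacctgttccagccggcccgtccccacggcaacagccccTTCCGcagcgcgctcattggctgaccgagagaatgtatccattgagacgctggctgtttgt

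Among the 8 members with a promoter here, the full element TGACGTCA was found only in Dusp1, from 143 to 136 bases before the start, and in 1.55% of all 32851 promoter windows of the same length. The shorter TGACG, which overlaps it, was found in Dusp1, Dusp5 and Spred2 and in 17.8% of all windows. A CArG box was found only in Dusp5, which holds 2 side by side, from 82 to 63 bases before the start; 1.47% of all windows hold one. The ETS core was found in Dusp6, Dusp5, Spred1 and Spred2, against 25.2% of all windows, and the AP-1 site TGANTCA in none of the 8, against 6.75%. These matches describe the letters of the windows and show no binding.

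Dusp1 encodes the inducible nuclear phosphatase that inactivates the stress kinases p38 and JNK as well as ERK, and it is an immediate early gene. It was the member with the widest range, 0.98 log2 units or 1.97-fold from lowest to highest array. Its values were 9.52 and 9.83 on the controls, 9.89, 9.68 and 9.58 after vesicles, 9.70, 9.93 and 10.40 after cells, and 9.42 on the sham array. The treated groups overlapped the controls, and the highest value came from cell array 3. The difference after cells was 0.30 ± 0.22 (adjusted p = 0.742), and 0.14 without cell array 3. After vesicles it was 0.011 ± 0.22 (adjusted p = 1.0), made of 0.37 within experiment 9 and −0.21 within experiment 1, and it was −0.25 without vesicle array 1.

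Dusp6, the cytoplasmic phosphatase specific for ERK, read 7.24 and 7.37 on the controls, 7.33, 7.46 and 7.46 after vesicles, 7.24, 7.54 and 7.72 after cells, and 7.28 on the sham array. Within experiment 1 all 4 treated arrays lay above the control, and within experiment 9 cell array 1 equalled its control to within 0.004. The difference was 0.073 ± 0.085 after vesicles and 0.16 ± 0.085 after cells (adjusted p = 0.836 and 0.683), and 0.085 after cells without cell array 3. Dusp5, a nuclear phosphatase specific for ERK, stayed below the negative control level everywhere: 6.29 and 6.38 on the controls, 6.38, 6.38 and 6.47 after vesicles, 6.17, 6.40 and 6.77 after cells, and 6.26 on the sham array. Cell arrays 1 and 3 were the lowest and the highest of all 9. Its difference after cells was 0.079 ± 0.15 (adjusted p = 0.923), and −0.053 without cell array 3. After vesicles it was 0.042 ± 0.15 (adjusted p = 0.979).

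Dusp4, a nuclear phosphatase related to Dusp1, stayed below the negative control level on every array. It read 5.47 on 7 of the 9 arrays to 2 decimals, 5.62 on control array 2 and 5.43 on cell array 3. Its differences of −0.079 ± 0.043 after vesicles and −0.093 ± 0.043 after cells (adjusted p = 0.676 and 0.682) rested on control array 2, without which they were 0.008 and −0.005. Etv5 encodes an ETS transcription factor of the PEA3 group, which serves as a readout of fibroblast growth factor signalling. It read 7.14 and 7.22 on the controls, 7.22 on all 3 vesicle arrays, 7.08, 7.20 and 7.27 after cells, and 7.35 on the sham array, which was the highest. Its differences were 0.026 ± 0.045 after vesicles and −0.0076 ± 0.045 after cells (adjusted p = 0.91 and 0.994).

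Between vesicles and cells, 0 of 10 members passed at an adjusted p under 0.05, as did 0.0% of all genes, and 1 of 10, Spry4, had an unadjusted p under 0.05, against 4.34% of all genes. The groups overlapped in all 10: 0 members had every vesicle array above or below every cell array, against 1.85% and 2.56% of all genes. The members' differences ran from −0.29 for Dusp1 to 0.034 for Etv5. Of the 10 members, 3 stood higher and 7 lower after vesicles than after cells, against 46.8% of all genes higher. Without vesicle array 3 and cell array 3 together the differences of Spry1, Spry2, Dusp5 and Dusp6 turned to 0.016, 0.031, 0.096 and 0.003.

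The array with the highest value was the same for 6 of the 10 members: Spry1, Spry2, Spry4, Dusp1, Dusp5 and Dusp6 all peaked on cell array 3. Over all genes 14.9% had their highest value there, and 25.9% of genes above the negative controls did. Averaged over the 10 members, the log2 value minus each gene's mean over the arrays was 0.21 on cell array 3 and lay between −0.12 on control array 1 and 0.057 on cell array 2 elsewhere. The mean of 27 transcription factors known as ERK or serum targets, Fos, Egr1 and Nr4a1 among them, moved the same way: it was 0.50 on cell array 3, between −0.21 and 0.054 on the other arrays, and lowest on the sham array. The mean of 20 other target genes was 0.23 on cell array 3 and at most 0.009 elsewhere. The peak was not particular to members and targets. Lists of other brakes (0.083), receptors (0.050), RAS to ERK genes (0.047), adaptors (0.037) and ligands (0.025) were also highest there. Kinases activated by ERK were highest on vesicle array 1. Endothelial and mural cell markers peaked on cell array 3, both at 0.12, and the other marker lists on other arrays. The part of the early response genes in the members' values was not tested; without that array the Spry4 difference after cells was 0.46 instead of 0.54.

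**Figure D3:**
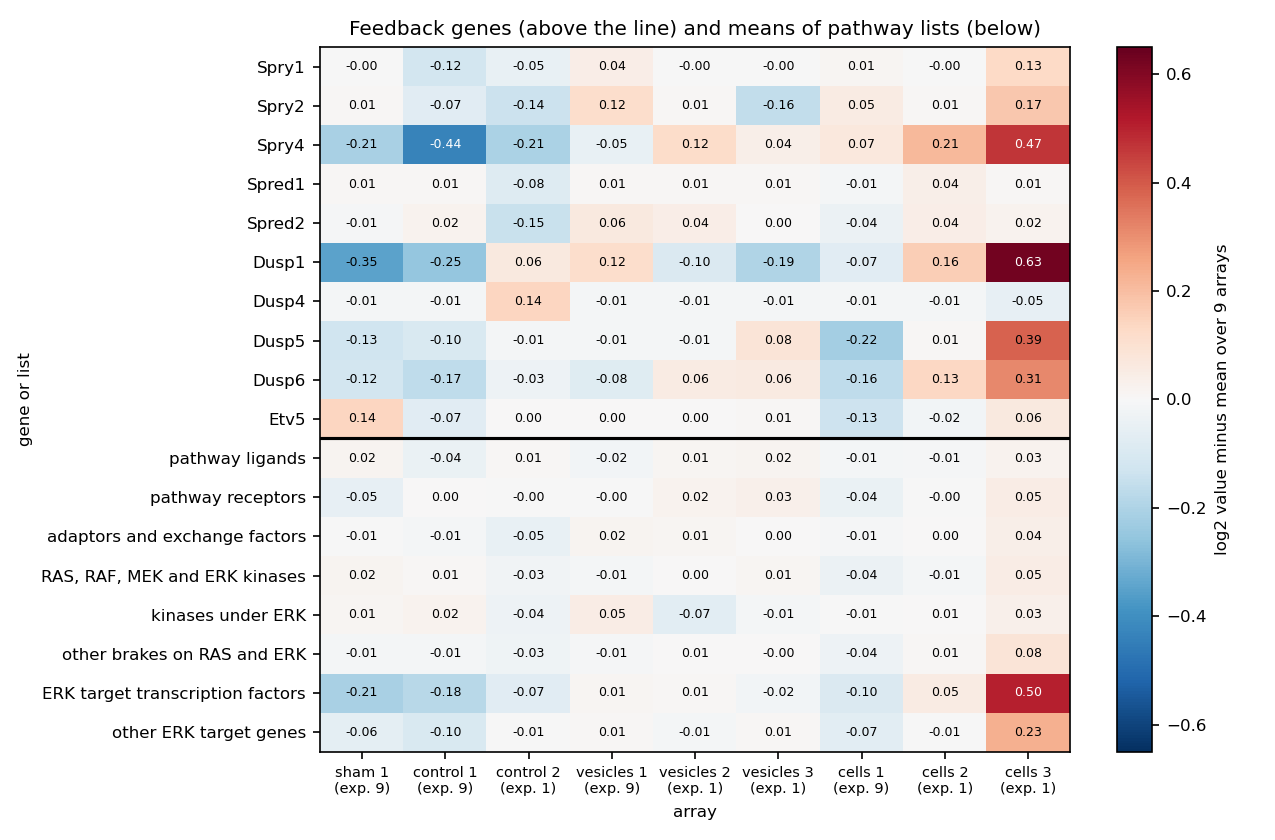
Log2 value minus the mean over the 9 arrays (colour and printed number) for each feedback gene, above the line, and for the mean of each pathway list, below it, on each array (columns, with experiment). Cell array 3 holds the highest value of 6 members and of the ERK target transcription factors, 0.50. All other pathway lists except the kinases under ERK are highest there too. Spry4 is below its mean on the sham array, both control arrays and vesicle array 1.

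The experiments were compared with treatment held fixed. Dusp6 stood lower in experiment 9 by −0.23 ± 0.068 and Spry4 by −0.21 ± 0.068 (adjusted p = 0.349 and 0.366). These were the 2 of 10 members with an unadjusted p under 0.05, against 12.8% of all genes, and 0 of 10 passed at an adjusted p, with 0.0% of all genes. Dusp5 stood at −0.19 ± 0.12 and Dusp1 at −0.16 ± 0.18, so 3 members were higher and 7 lower in experiment 9, against 41.6% of all genes higher. Whether a treatment effect differed between the experiments was tested by interaction: 3 of 10 members, Spred1, Spred2 and Dusp4, had an unadjusted p under 0.05, for vesicles (18.1% of all genes) and for cells (18.8%), and 0 passed at an adjusted p, with 0.0% of all genes. That fit has 2 residual degrees of freedom. For Spry4 the effect in experiment 9 minus that in experiment 1 was 0.10 ± 0.22 for vesicles and −0.040 ± 0.22 for cells (adjusted p = 0.949 and 0.984).

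In experiment 9 the sham array can be set beside the control array, with no replicate on either side. Spry4 was 0.22 log2 units above control on the sham array, against 0.39 after vesicles and 0.51 after cells. Etv5 was 0.21 and Spry1 0.12 above control, Dusp6 0.046 above, and Dusp1 0.099 below. The sham array lay above control array 1 in 6 of 10 members and in 38.8% of all genes and 42.5% of the brighter ones. Control array 1 had the lowest of all 9 values for Spry1, Spry4 and Dusp6, a place it took in 8.55% of all genes and 4.86% of the brighter ones.

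Further genes of the pathway gave 0 calls at an adjusted p under 0.05 by limma in any comparison; counts at an unadjusted p under 0.05 are given for each list. They stand beside 1.91% of all genes higher at that threshold after vesicles and 1.68% after cells, 6.44% and 6.73% in both directions, and 39.6% and 44.2% with a difference above 0. Upstream, the receptors (17 measured) and their growth factor ligands (22 measured) had median differences of −0.0095 and 0.0036 after vesicles and −0.017 and 0.0012 after cells. At the unadjusted threshold 1 receptor was higher after vesicles, and 1 ligand was lower in each comparison. Pdgfrb, a receptor of mural cells for platelet-derived growth factor, stood at 0.22 ± 0.065 after vesicles. The ligand Fgf18 stood lower, at −0.092 ± 0.026 after vesicles, and both passed that threshold. Vegfa, the vascular growth factor, stood at 0.21 ± 0.089 after cells and did not pass it (unadjusted p = 0.0655 by limma). The 14 measured genes for RAS, RAF, MEK, ERK and their scaffolds had medians of 0.0035 and 0.0068, with 8 of 14 higher in each comparison and none at an unadjusted p under 0.05. Adaptors and exchange factors that couple receptors to RAS were higher in 10 of 13 after vesicles and 9 of 13 after cells, with Gab2, a docking protein, at 0.15 ± 0.050 and Sos1, a RAS activator, at 0.082 ± 0.026 after vesicles, the 2 that passed the unadjusted threshold there, against 0 after cells. Of 4 measured kinases activated by ERK, 2 were higher after vesicles and 3 after cells, with 0 past the unadjusted threshold.

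The other brakes on the pathway had 13 of 28 higher after vesicles and 16 of 28 after cells, against 39.6% and 44.2% of all genes, with medians of −0.0039 and 0.0043. At the unadjusted threshold 2 of 28 were higher after vesicles and 2 of 28 lower after cells. Rasa1, a RAS inactivator, stood at 0.25 ± 0.077 after vesicles (adjusted p = 0.675). Erf stood lower after cells, at −0.083 ± 0.028 (adjusted p = 0.682), and passed the unadjusted threshold. Errfi1, an induced inhibitor of the EGF receptor, stood at 0.63 ± 0.35 after cells (adjusted p = 0.684) and did not pass it. Its value was 9.05 on cell array 3 against 7.50 and 8.15 on cell arrays 1 and 2 and 7.47 and 7.57 on the controls. The target transcription factors were higher in 19 of 27 after vesicles and 22 of 27 after cells, with medians of 0.074 and 0.15, and 2 and 4 of them passed the unadjusted threshold upwards and 0 downwards. Klf6, a Krüppel-like factor, stood at 0.39 ± 0.093 after vesicles and 0.38 ± 0.093 after cells (adjusted p = 0.675 and 0.682), and Nr4a1, an orphan nuclear receptor, at 1.04 ± 0.38 after cells. Without cell array 3 the Nr4a1 difference after cells was 0.70 and that of Errfi1 0.31. The other targets had 13 of 20 higher in both comparisons, with 1 in each direction past the unadjusted threshold after vesicles and 2 in each after cells, among them Ccn1, a matrix signalling protein, at 0.44 ± 0.17 and 0.54 ± 0.17.

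The gene with the profile nearest to that of Spry4 was Adamts1, a secreted protease, at a root mean square distance of 0.13 log2 units over the 9 centred values, beside 0.25 for Spry4 against its own mean. Adamts1 read 7.07 and 7.57 on the controls, 7.53, 7.56 and 7.56 after vesicles, 7.56, 7.96 and 8.27 after cells, and 7.40 on the sham array. Nearest to Dusp1 was Klf2, a flow-responsive factor of endothelium, at 0.12, and nearest to Dusp6 was Tagln2, an actin-binding protein, at 0.056. For the other members above background the nearest genes were Cux1 (Spry1), Ptges3 (Spry2), Ankle2 (Spred1), Rsu1 (Spred2) and Anxa4 (Etv5), at 0.0098 to 0.054. Distances were taken to 6819 genes. The nearest member to Spry4 was Dusp6, at 0.15, and 5 other genes lay closer. That count was the smallest: for the other members above background it ran from 30 for Dusp1 to 1344 for Etv5. For Dusp6 the nearest member was Spry1, with 437 other genes closer.

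Markers of cell types were read beside Spry4, since the hearts were whole. The mean of 11 endothelial markers, minus their means over the arrays, was 0.019 and −0.091 on the controls, 0.013 to 0.029 on the vesicle arrays and −0.050 to 0.12 on the cell arrays. That of 10 mural cell markers was −0.064 and −0.048 on the controls, 0.035 to 0.10 after vesicles and −0.12 to 0.12 after cells. Fibroblast markers ran from −0.19 to −0.017 on the controls, 0.007 to 0.17 after vesicles and −0.24 to 0.10 after cells. Of these lists, 10 of 11 endothelial, 9 of 10 mural and 11 of 11 fibroblast markers exceeded the negative controls on all 9 arrays. The part of these cell types in the Spry4 values was not tested.

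**Figure D4:**
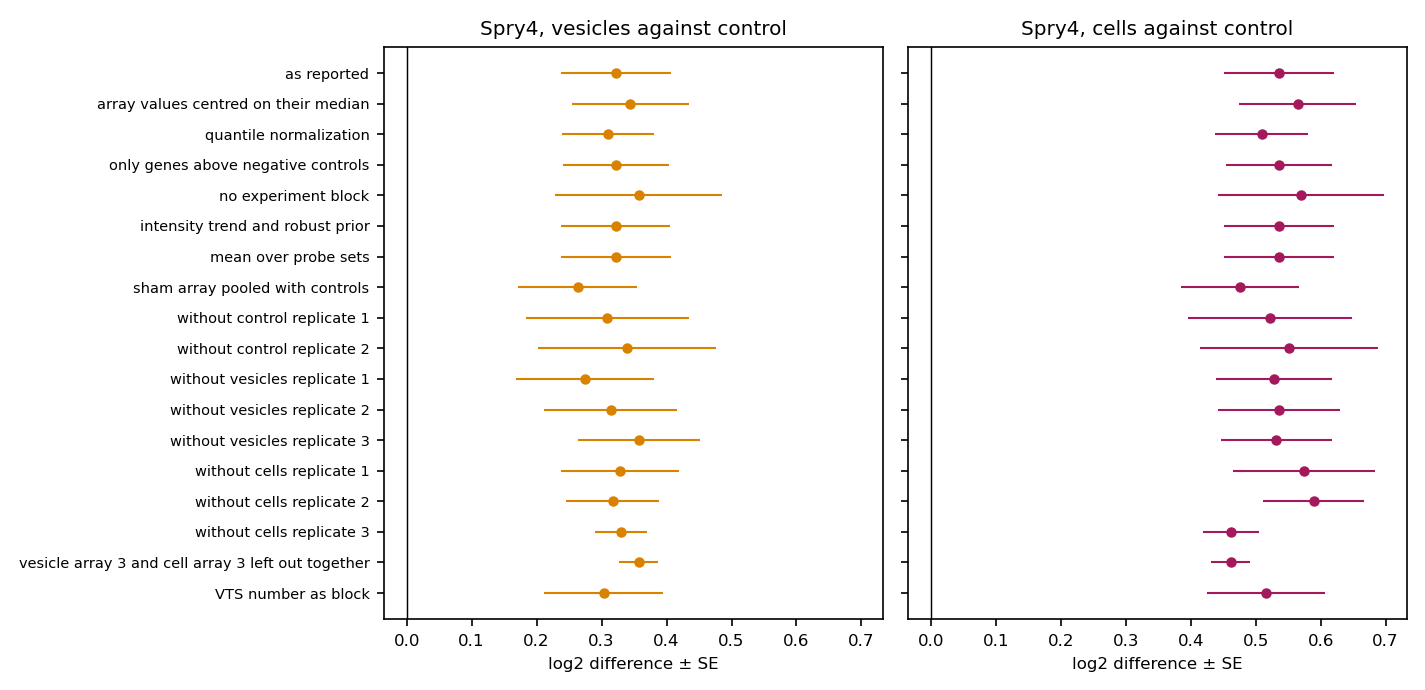
Log2 difference of Spry4 from control ± SE (horizontal axis) after vesicles (left) and after cells (right), as reported and under 17 other settings (vertical axis). All values lie above 0, from 0.26 to 0.36 after vesicles and from 0.46 to 0.59 after cells.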

How the data were processed

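RNA of whole frozen hearts was extracted with Trizol and labelled with biotin for Affymetrix whole-transcript arrays, per the labels' protocols. The authors deposited a log2 value for each probe set on each array; that it is log2 was inferred from its range (1.55 to 14.17). The methods of background correction and normalization were not given in the sources used here. Partek is named without role in the submitters' processing notes. Of 80202 probe sets, 30604 have 1 symbol in the platform table, repeats of one symbol counted once; Entrez numbers and a RefSeq table (GRCm38.p6) served to bring symbols up to date, and the probe set with the highest mean per gene was kept (30142 genes).

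The 8 arrays of injected groups entered a linear model in limma 3.58.1 (R 4.3.3; lmFit, then eBayes) that held a mean for every treatment plus a fixed term for the experiment (4 residual and 1.18 prior degrees of freedom). Tests were two-sided and p-values adjusted by Benjamini-Hochberg over all 30142 genes, threshold 0.05. The steps were also run on simulated data with planted changes. How many were recovered is not given here, so that run lends no weight to the absence of calls. Replicates were numbered by accession order, which pairs no arrays; the VTS number ties arrays across groups and was tried as a block. Named genes were all members, up to 3 genes above the negative controls with the lowest p per pathway list and comparison, a selection of which is printed, and the nearest profile to each member. Members and lists were chosen with earlier results of these data known. Arrays have no read depth, and their number limits precision. Alternatives covered normalization, a filter on dim genes, the block (none, or the VTS number), the prior, probe sets, the sham array and left-out arrays.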

Additional observations from a re-analysis of the deposited data

How the results depend on the processing

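Limma called 0 members at an adjusted p under 0.05 under 17 alternatives in each comparison of treatments and 15 between experiments; the interactions had none. Over all genes, calls were made without control array 1, a fit that leaves 1 control array, and with the sham array among the controls (1 after cells). No other alternative gave any. The filter on dim genes left 8 members, without Dusp4 and Dusp5, which signal over background limits. Spry4 kept its direction under all of them in the comparisons with control, from 0.26 to 0.36 after vesicles (adjusted p 0.349 to 0.896) and from 0.46 to 0.59 after cells (adjusted p 0.145 to 0.999). Of 652 alternative values of single members, 44 changed sign; the cause was not tested. By quantile normalization Dusp1 turned to −0.001 after vesicles, Spred1 to 0.004 for vesicles against cells and to −0.005 between experiments. Centring on array medians turned Etv5 to 0.022 after cells and Spry1 to 0.012 between experiments. Without the experiment block Etv5 turned to 0.006 after cells, and with the sham array among the controls to −0.033 after vesicles. Without vesicle array 3 and cell array 3, Dusp5 turned to −0.053 after cells, and for vesicles against cells Spry1, Spry2, Dusp5 and Dusp6 to 0.016, 0.031, 0.096 and 0.003. Leaving out 1 array at a time gave, after vesicles, 0.05 to 0.133 for Spry1, 0.033 to 0.167 for Spry2, 0.005 to 0.13 for Dusp6, −0.012 to 0.098 for Spred1, −0.25 to 0.125 for Dusp1, −0.152 to 0.008 for Dusp4, −0.048 to 0.109 for Dusp5 and −0.022 to 0.04 for Etv5. After cells it gave −0.01 to 0.1 for Spred1, −0.023 to 0.161 for Spred2, −0.053 to 0.219 for Dusp5 and −0.04 to 0.041 for Etv5. For vesicles against cells it gave −0.071 to 0.009 for Spry1, −0.026 to 0.015 for Spred1, −0.028 to 0.051 for Spred2, −0.007 to 0.041 for Dusp4, −0.155 to 0.109 for Dusp5 and −0.007 to 0.07 for Etv5. Between experiments it gave −0.061 to 0.003 for Spry1, −0.018 to 0.04 for Spred1, −0.016 to 0.094 for Spred2, −0.401 to 0.015 for Dusp1 and −0.065 to 0.009 for Dusp4. A lone control array was assumed to vary like the other groups. No paired analysis by replicate number was possible because the replicate numbers come from accession order and pair no arrays. The VTS number as a block in place of the experiment (3 residual degrees of freedom), an alternative chosen after seeing the data, gave Spry4 0.303 after vesicles, 0.516 after cells and −0.213 for vesicles against cells (adjusted p 0.751, 0.798 and 0.92). It turned Dusp1 to −0.026 and Dusp5 to −0.023 after vesicles.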
